A study of Mus musculus with 73 samples.

Results

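Peg10, Sgce, Casd1, Ppp1r9a and Mest are 5 genes on the proximal part of mouse chromosome 6. They were chosen by name, as the retrotransposon-derived gene Peg10, the genes on either side of it, and the imprinted gene Mest farther along the chromosome, and they are 5 of the 30546 genes in the deposited table. In mm10 coordinates Casd1 spanned chr6:4600563-4643381, Sgce chr6:4674350-4747204, Peg10 chr6:4747306-4760517, Ppp1r9a chr6:4902744-5165661 and Mest chr6:30733506-30748466. The Sgce and Peg10 annotations were 101 bp apart, and Mest started 26 Mb beyond Peg10.

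Genomic imprinting is the expression of a gene from the copy inherited from one parent, and it depends on DNA methylation that was laid down in the egg or the sperm and is kept through cell division by the methyltransferase Dnmt1. Peg10 and Sgce share a maternally methylated region between their starts, and Mest has a maternally methylated region of its own, so that in each case the paternal copy is the active one. Peg10 encodes a gag-like protein needed for the placenta. Sgce encodes epsilon-sarcoglycan, a membrane protein of the dystrophin-associated complex, and Mest encodes a hydrolase-like protein of the endoplasmic reticulum. Casd1, an O-acetyltransferase for sialic acid, and Ppp1r9a, the actin-binding protein neurabin-1, are their neighbours, and Ppp1r9a has been described as maternally biased in placental tissue.

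Epiblast, which gives rise to the embryo proper, and extraembryonic ectoderm (ExE), a trophoblast tissue, were taken from single mouse embryos at embryonic day 6.5. The wild type (WT) was measured in BDF1xCAST embryos (BDF1 mother, a hybrid of the C57BL/6 and DBA strains, and CAST father; n = 7 in each tissue) and in the reciprocal CASTxBDF1 embryos (n = 4 in each tissue). The knockouts were BDF1xCAST embryos disrupted for Dnmt1 (n = 3 in each tissue), for Ehmt1 and Ehmt2 together (G9a-Glp, the histone H3 lysine 9 methyltransferases; 6 epiblasts and 8 ExE samples), for Rnf2 (of Polycomb repressive complex PRC1; 6 and 5) or for Eed (of PRC2; 9 and 10). All BDF1xCAST zygotes were made by injecting CAST sperm into BDF1 eggs, those of the knockouts then received Cas9 mRNA and guide RNAs against the gene, and blastocysts were carried by CD-1 females, whereas CASTxBDF1 embryos came from natural mating. The knockouts were therefore made in the zygote and may be mosaic, each embryo carries its own mutations, and the direction of the wild-type cross cannot be told apart from the mode of fertilisation. Embryos of both sexes were used.

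The values are reads that overlap a polymorphism between BDF1 and CAST, so every read is assigned to the maternal or the paternal copy. Levels are given as CPM, the reads of a gene scaled to a common total of such reads in the library, and they are not compared between genes. Group totals ran from a median of 1490348 reads per library in Dnmt1 epiblast to a median of 8195827 in Rnf2 ExE, and the shallowest library held 1141414. The markers followed the labelled tissues: 7 epiblast markers summed to a median of 3616 CPM in WT BDF1xCAST epiblast and 962.6 in its ExE, and 7 ExE markers to 101.2 and 690.5. The targeted gene was below every WT BDF1xCAST library in all 9 Eed epiblasts and all 10 Eed ExE samples, but it was not low in 1 library labelled Dnmt1 ExE (replicate 1), in 2 labelled G9a-Glp epiblast (replicates 2 and 7, where neither targeted gene was low) and in 3 of the 5 labelled Rnf2 ExE (replicates 2, 5 and 6), of which none lay below every wild-type library. Not low means at or above the second-lowest wild-type library. Dnmt1 ExE replicate 2 held 34.5 CPM of Dnmt1, just below the lowest wild-type ExE library at 35.7 CPM, and replicate 3 held 5.16 CPM. Taken singly, Ehmt1, which encodes Glp, was not low in 2 of 6 G9a-Glp epiblasts and 3 of 8 G9a-Glp ExE samples, and Ehmt2, which encodes G9a, in 5 of 6 and 0 of 8. Ehmt2 was at 3.07 CPM on average in both the wild-type and the knockout epiblast. The main results that rest on these libraries are given with and without them.

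Because the knockout of Dnmt1 acts on the cytosines of CG dinucleotides, the windows from 250 bases before to 50 bases after annotated transcript starts are shown for the genes that have an entry in the RefSeq table of GRCm38.p6, with CG in capitals and all other bases in lower case. Casd1 and Ppp1r9a matched 2 windows each and Mest matched 3, and 4 of these are shown. The first Mest window lies at its upstream start and the second at its downstream start.
Mest chr6:30733256-30733555: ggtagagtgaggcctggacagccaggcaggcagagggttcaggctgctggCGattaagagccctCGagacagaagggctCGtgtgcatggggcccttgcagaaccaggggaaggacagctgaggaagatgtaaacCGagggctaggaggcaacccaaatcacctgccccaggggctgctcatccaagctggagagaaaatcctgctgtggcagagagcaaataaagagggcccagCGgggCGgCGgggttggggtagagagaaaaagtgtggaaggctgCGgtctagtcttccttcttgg
Mest chr6:30737800-30738099: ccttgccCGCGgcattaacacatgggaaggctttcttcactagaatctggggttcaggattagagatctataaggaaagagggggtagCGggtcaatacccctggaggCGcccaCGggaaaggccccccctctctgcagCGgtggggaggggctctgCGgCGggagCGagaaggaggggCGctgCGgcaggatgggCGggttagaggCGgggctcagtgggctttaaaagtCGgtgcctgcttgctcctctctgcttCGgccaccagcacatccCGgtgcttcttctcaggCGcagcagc
Casd1 chr6:4600661-4600960: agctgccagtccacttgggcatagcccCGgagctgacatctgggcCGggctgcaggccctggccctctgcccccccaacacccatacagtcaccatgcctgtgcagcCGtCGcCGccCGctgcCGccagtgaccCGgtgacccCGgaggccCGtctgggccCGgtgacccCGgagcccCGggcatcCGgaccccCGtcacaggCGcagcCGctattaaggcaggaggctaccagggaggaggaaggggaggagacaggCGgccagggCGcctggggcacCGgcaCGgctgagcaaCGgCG
Ppp1r9a chr6:4903061-4903360: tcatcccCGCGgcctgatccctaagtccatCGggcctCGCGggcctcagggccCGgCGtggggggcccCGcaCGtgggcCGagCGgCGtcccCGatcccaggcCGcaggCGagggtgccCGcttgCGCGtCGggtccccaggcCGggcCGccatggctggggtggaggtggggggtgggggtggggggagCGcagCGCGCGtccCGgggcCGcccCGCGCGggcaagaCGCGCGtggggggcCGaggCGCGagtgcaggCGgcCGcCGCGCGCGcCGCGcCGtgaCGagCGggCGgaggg
The upstream Mest window held 8 CG dinucleotides and the downstream window 17, where the median over 32851 promoter windows was 7. The Casd1 window shown held 23, and that of Ppp1r9a 48, more than 98.78% of all windows. The second windows of these genes, which are not shown, held 5 and 10. The hexamer TGCCGC, the sequence recognised by the imprint-protecting protein ZFP57 when methylated, was sought on both strands and occurs in 11.61% of windows. It occurred 2 times in the downstream Mest window, 1 time in the Casd1 window and not in the upstream Mest or the Ppp1r9a window. Its CG counts among the CG dinucleotides above. Such matches describe the letters of these windows and not a bound site.

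In the wild type, Peg10, Sgce and Mest were read from the paternal copy in both crosses. In WT BDF1xCAST ExE, Peg10 had 0 maternal reads of 350 over the 7 libraries, which allows a share of up to 0.857%, and in WT CASTxBDF1 ExE it had 1 of 268. The maternal share of Sgce in WT BDF1xCAST ExE ran from 0% over a median of 0.926% to 2.63%, and the 4 WT CASTxBDF1 ExE samples held 0%, 0%, 2.38% and 2.44%. For Mest the same libraries ran from 0.820% over 2.04% to 5.94%, and the reciprocal ExE held 0%, 0%, 7.14% and 8.33%. No library of either cross reached 10% for these genes in ExE, so the sign of the bias followed the parent and not the strain.

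With a term for the parent beside a term for the strain, edgeR's quasi-likelihood test, adjusted by the Benjamini-Hochberg method over all genes tested (the adjusted p throughout), gave maternal to paternal log2 ratios in ExE of -6.41 for Sgce (SE 0.29, adjusted p = 4.63e-12) and -5.02 for Mest (SE 0.30, adjusted p = 4.19e-10). Peg10 passed as well (adjusted p = 5.85e-09). With the further condition that the mean maternal share was at most 30% in both crosses, 3 of the 5 genes were called paternally expressed in ExE, where 0.347% of 8654 genes were. Casd1 and Ppp1r9a were not called: Casd1 held 46.2% ± 10.8 maternal reads in WT BDF1xCAST ExE (SD, n = 7) and 54.4% ± 10.9 in the reciprocal cross (SD, n = 4). Ppp1r9a held 62.5% ± 11.9 and 38.3% ± 21.6 in the same groups, which is more BDF1 than CAST in both, where BDF1 held 57.1% and 57.0% of all autosomal reads of these groups, and its parental log2 ratio was -0.02 (SE 0.31, adjusted p = 1). These Ppp1r9a shares rest on 12 to 39 reads per library.

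In epiblast the pattern was the same for the genes with enough reads. Sgce and Mest were called, 2 of the 4 genes tested, where 0.165% of 8469 genes were called paternal. The parental log2 ratio was -4.17 for Sgce (SE 0.49, adjusted p = 1.77e-05) and -4.93 for Mest (SE 0.35, adjusted p = 5.24e-09). Peg10 was not tested there, since no WT epiblast library held more than 5 of its reads. The largest maternal share of Sgce in the wild type, 26.9% of 78 reads, was in WT CASTxBDF1 epiblast replicate 2. In that library 8 visceral endoderm markers summed to 2466 CPM, against 5.79 to 33.2 CPM in the other CASTxBDF1 epiblasts, and the part of other cells in this share was not tested. The parental bias of Sgce or Mest did not pass the test for a difference between the tissues (adjusted p = 0.782 and 1).

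**Figure D1:**
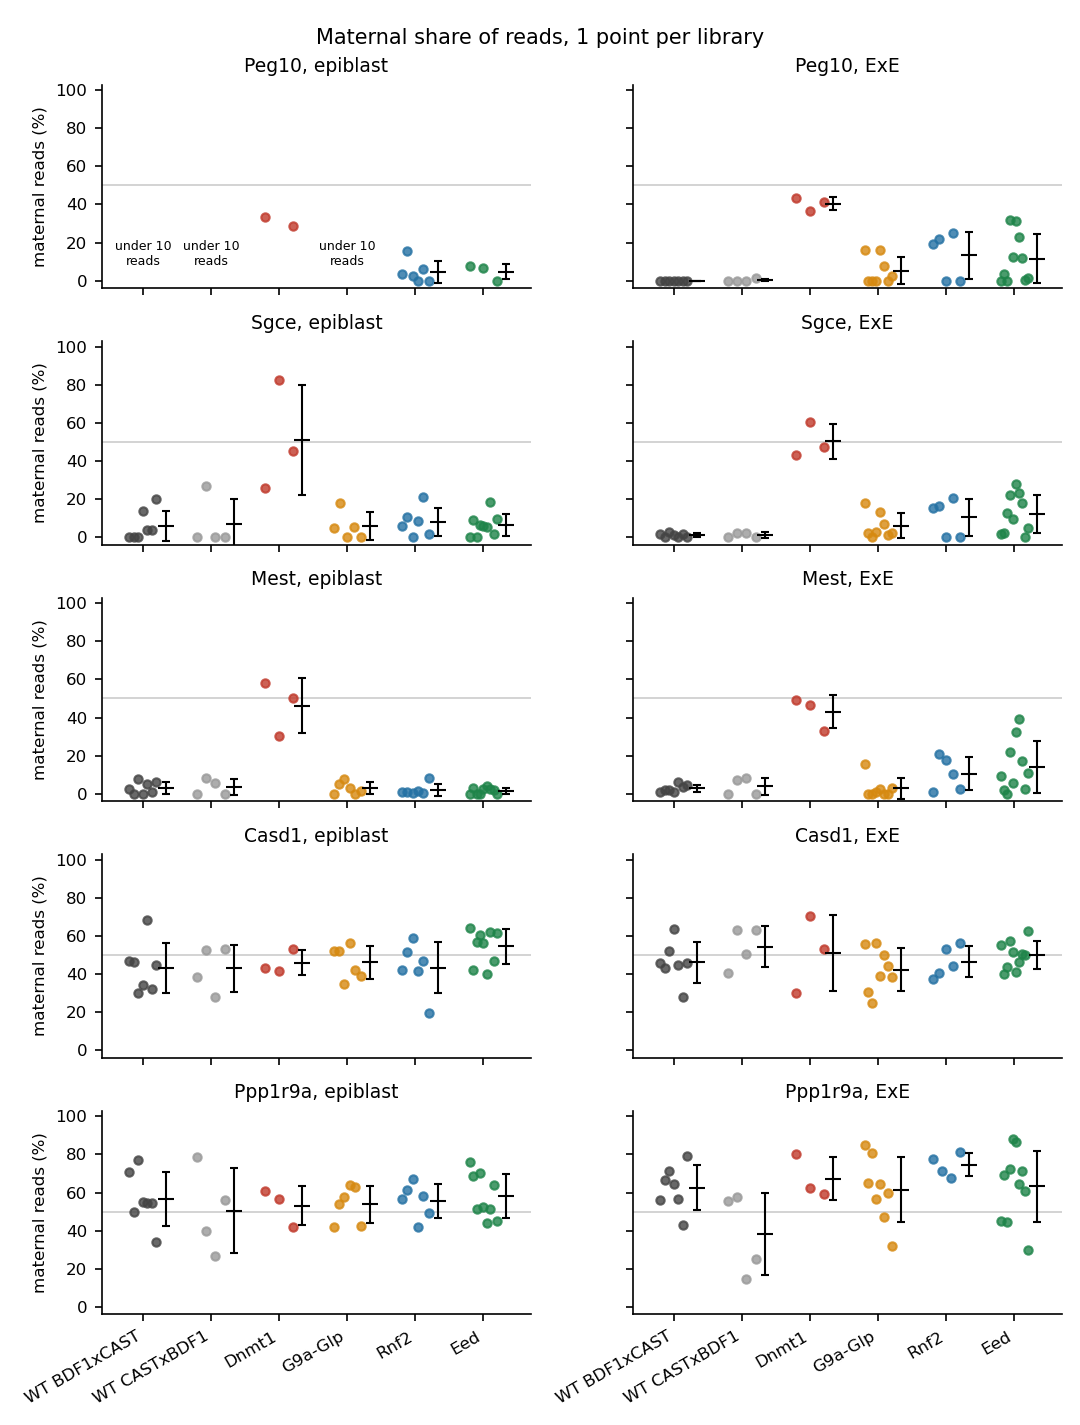
Maternal share of reads (%, y axis) of each gene in libraries with at least 10 reads, by group (x axis), with epiblast on the left and ExE on the right; points are libraries, and bars give the mean ± SD where a group has at least 3 such libraries. In ExE, Peg10, Sgce and Mest lie under 10% in both wild-type crosses and between 33.1% and 60.7% in the 3 Dnmt1 samples, and in wild-type epiblast Sgce reaches 26.9%, whereas Casd1 and Ppp1r9a hold reads of both copies in every group.

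The levels of the genes differed between the wild-type tissues. Peg10 ran from 0 over 0.363 to 3.81 CPM in WT BDF1xCAST epiblast and from 13.2 over 16.7 to 22.7 CPM in ExE, so the groups did not overlap, and the log2 difference was 4.60 (SE 0.53, adjusted p = 8.32e-07). Sgce was higher in ExE too, at 32.1 ± 9.83 CPM against 16.0 ± 4.59 (SD, n = 7), a log2 difference of 1.01 (SE 0.25, adjusted p = 0.00203), although the 2 ranges overlapped. Ppp1r9a was lower in ExE, at 7.12 ± 3.11 against 15.0 ± 6.56 CPM (log2 difference -0.99, SE 0.29, adjusted p = 0.00756). Mest (38.3 ± 3.67 and 32.6 ± 4.48 CPM) and Casd1 (19.4 ± 3.05 and 21.5 ± 4.12 CPM) did not pass (adjusted p = 0.137 and 0.627). Of all genes tested, 56.7% passed between these tissues, so the count of 3 of 5 is near the background. In such bulk samples, fewer cells that use a gene and less RNA per cell cannot be told apart. No level passed the test between the wild-type crosses, with 0 of the 4 genes tested in epiblast and 0 of 5 in ExE called by edgeR, and 0 and 1 at an unadjusted p under 0.05 (Mest in ExE, p = 0.0134, adjusted p = 0.251). The background was 0.0103% and 1.06%, and no alternative called any of them. Mest ran from 18.8 over 24.5 to 37.6 CPM in WT CASTxBDF1 ExE, where 3 of 4 libraries lay below the WT BDF1xCAST minimum of 33.7 CPM. Ppp1r9a ran from 5.20 over 5.97 to 17.2 CPM in WT CASTxBDF1 epiblast, where 3 of 4 lay below the WT BDF1xCAST minimum of 9.91 CPM.

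The genes around this pair of regions did not share the parental bias. Of 17 further genes of the Peg10 region in the table, 6 were tested in epiblast and 5 in ExE, and of 9 further genes listed with Mest 3 and 2 were tested. None was called imprinted by edgeR in either tissue, at backgrounds of 0.319% and 0.844% of genes with a parental term past the threshold. Copg2, a vesicle coat subunit whose annotation lies 1534 bp beyond Mest, had a parental log2 ratio of -0.47 in ExE (SE 0.23, unadjusted p = 0.0584, adjusted p = 0.682) and 0.78 in epiblast (SE 0.37, unadjusted p = 0.0488, adjusted p = 0.962). In ExE it held 46.0% ± 5.50 maternal reads in WT BDF1xCAST (SD, n = 6) and 34.7% ± 9.98 in WT CASTxBDF1 (SD, n = 4). Pon2, a lactonase gene 517.3 kb from the Peg10 start that was chosen after its values were seen, followed the strain: its ExE reads were 96.0% ± 2.41 maternal in WT BDF1xCAST (SD, n = 7) and 3.78% ± 1.95 maternal in WT CASTxBDF1 (SD, n = 4), which is the BDF1 copy each time. Its parental log2 ratio was -0.11 (SE 0.24, adjusted p = 0.978).

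**Figure D2:**
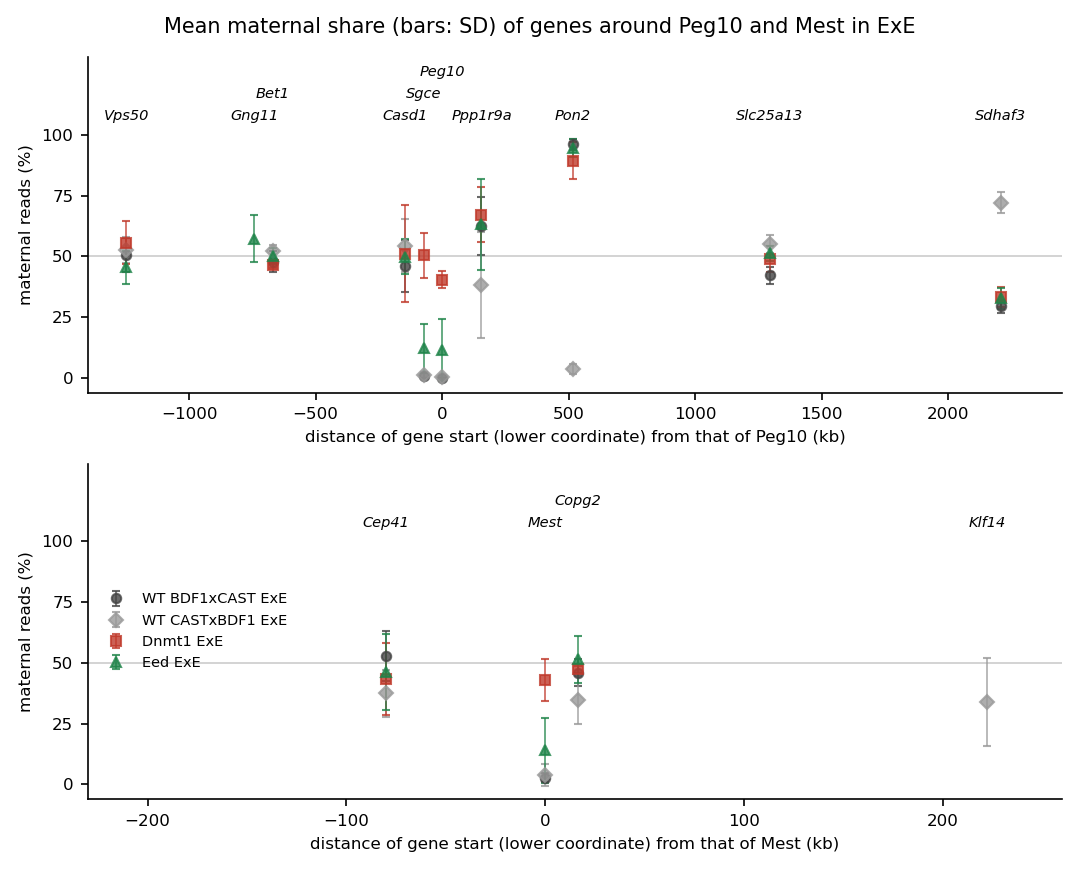
Mean maternal share (%, y axis; bars are the SD over libraries) of the genes tested around Peg10 (top) and Mest (bottom) in ExE, against the distance of their lower coordinate from that of Peg10 or Mest (kb, x axis), for 2 wild-type crosses and the Dnmt1 and Eed knockouts. Sgce, Peg10 and Mest are near 0% in both crosses and rise in the Dnmt1 samples, whereas Pon2 changes sides between the crosses.

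All knockout comparisons below use the same WT BDF1xCAST libraries of the tissue as controls and so are not independent of each other. Loss of Dnmt1 brought the maternal copies of Peg10, Sgce and Mest to expression in ExE. The maternal share of Peg10 was 43.2%, 36.6% and 41.4% in the 3 Dnmt1 ExE samples, that of Sgce 43.1%, 60.7% and 47.6%, and that of Mest 49.4%, 46.4% and 33.1%. Every one of these lay above all 7 WT BDF1xCAST samples, for which the highest was 0% for Peg10, 2.63% for Sgce and 5.94% for Mest. The change in the maternal to paternal log2 ratio was 6.35 for Sgce (SE 0.48, adjusted p = 9.59e-08) and 4.66 for Mest (SE 0.39, adjusted p = 2.16e-07), and Peg10 passed as well (adjusted p = 1.41e-06). Of the 5 genes, 3 were called more maternal, where 0.402% of all genes were, and the median log2 change was 4.66 for the 5 genes and -0.01 for all genes tested. The library labelled Dnmt1 ExE replicate 1 held 47.9 CPM of Dnmt1, within the wild-type range, yet its shares for the 3 genes lay above every wild-type library, with the highest share of the 3 for Peg10 and Mest and the lowest for Sgce. Without it the adjusted p was 8.17e-07 for Sgce, 1.75e-05 for Peg10 and 7.29e-06 for Mest.

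The 3 genes differed in what happened to the total level. Peg10 rose to 75.4, 71.9 and 112 CPM in Dnmt1 ExE, above every wild-type sample, with a log2 change of 2.07 (SE 0.20, adjusted p = 6.14e-05), the 1 call among the 5 genes where 8.54% of all genes were called higher. Its paternal copy rose with the maternal copy, from 17.3 ± 3.19 CPM (SD, n = 7) to 51.4 ± 12.6 CPM (SD, n = 3), a log2 change of 1.31 (SE 0.20, adjusted p = 0.00127). Sgce kept a total of 32.5 ± 2.87 CPM beside 32.1 ± 9.83 in the wild type (log2 change -0.23, SE 0.27, adjusted p = 0.609). Its maternal copy rose from 0.339 ± 0.334 to 16.5 ± 3.58 CPM and its paternal copy fell from 31.8 ± 9.75 to 16.1 ± 2.89 CPM, a log2 change of -1.23 (SE 0.29, adjusted p = 0.0102, or 0.0618 without replicate 2). The paternal ranges of Sgce overlapped in 1 of the 3 samples. The total of Mest was 82.6, 40.3 and 76.6 CPM against 33.7 to 44.7 in the wild type, so 2 of 3 samples lay above the wild type and 1 within it (log2 change 0.55, SE 0.21, adjusted p = 0.0889). The maternal copies of Peg10, Sgce and Mest were all called higher (adjusted p = 9.45e-05, 9.45e-05 and 6.39e-05), where 6.49% of genes were. Of all genes 6.48% were called higher and 8.93% lower on the paternal copy. Without replicate 1 the adjusted p was 6.13e-04 for the total and 0.00592 for the paternal copy of Peg10, 0.0391 for the paternal copy of Sgce and 0.00122 for each of the 3 maternal copies. Of the ectoplacental cone and giant cell markers, Plac1 had a median of 114 CPM (104.1 to 635.9) in Dnmt1 ExE against 321.5 CPM (1.79 to 1129) in the wild type, and Tpbpa, Prl3d1 and Ctsq were at 0 in both. The 8 visceral endoderm markers summed to a median of 38.6 CPM (15.8 to 41.7) against 20.1 (12.8 to 27.5). The part of such cells in the rise of Peg10 was not tested.

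**Figure D3:**
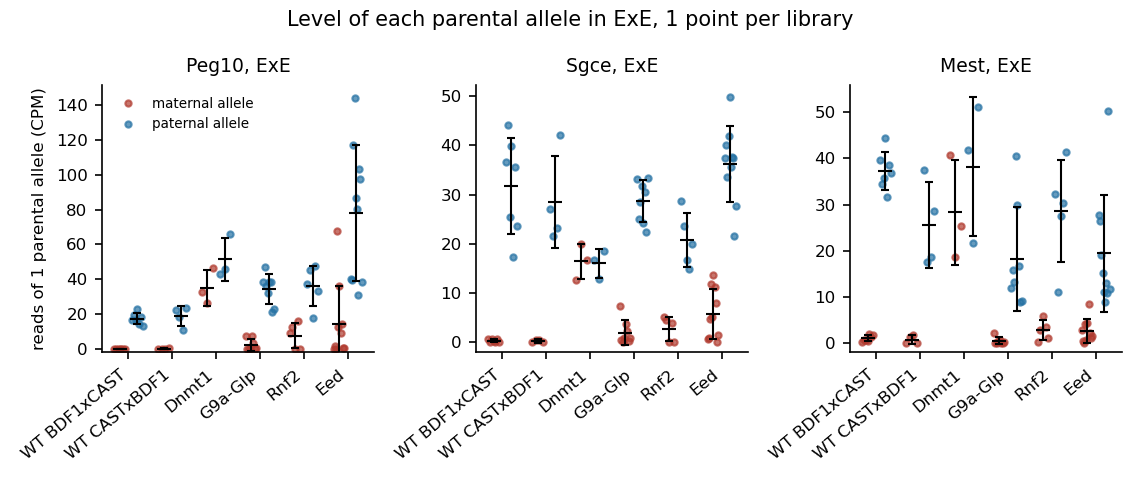
Reads of the maternal and of the paternal copy (CPM, y axis) of Peg10, Sgce and Mest in each ExE library by group (x axis), with the mean ± SD as bars. In Dnmt1 ExE both copies of Peg10 lie above all wild-type values and the paternal copy of Sgce is lower. In Eed ExE the paternal copy of Peg10 is higher in all 10 samples, and that of Mest is below every WT BDF1xCAST value in 9.

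In epiblast, loss of Dnmt1 gave maternal shares of 25.7%, 82.4% and 45.0% for Sgce and 58.3%, 30.5% and 50.0% for Mest, all above the highest WT BDF1xCAST values of 20% and 7.59%. The allelic log2 change was 4.93 for Mest (SE 0.58, adjusted p = 3.28e-05) and 4.45 for Sgce (SE 0.91, adjusted p = 0.0160), so 2 of the 4 genes tested were called, where 0.377% of all genes were called more maternal. The Sgce value rested on 17 to 35 reads per library and was not called without replicate 2 or without replicate 3, where its adjusted p reached 0.135. The maternal copies of Mest and Sgce were called higher (adjusted p = 8.69e-04 and 0.0132), where 5.02% of genes were. Peg10 had 29 reads over the 3 Dnmt1 epiblasts, 9 of them maternal, and the WT BDF1xCAST epiblasts had 11 reads with 1 maternal, which is too few for the test. No total level passed in Dnmt1 epiblast by edgeR, where 13.9% of all genes did. The total of Mest was 56.3, 51.7 and 51.0 CPM, above the highest wild-type value of 41.0 CPM in all 3 samples, at an unadjusted p of 0.0358 and an adjusted p of 0.145, and it was the 1 gene of the 4 under 0.05 without adjustment. Library totals in place of TMM factors gave an adjusted p of 0.0276. The allelic change did not pass a test for a difference between the tissues for Sgce (adjusted p = 0.961) or Mest (adjusted p = 0.997).

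Loss of Eed changed the genes unevenly from embryo to embryo in ExE. The maternal share of Peg10 ran from 0% over a median of 7.71% to 31.9% in the 10 samples, that of Sgce from 0% over 11% to 27.8%, and that of Mest from 0% over 10.2% to 39.1%. Shares lay above the whole wild-type range in 7 of 10 samples for Sgce and in 6 for Mest. For Peg10, whose wild-type libraries hold 0%, 8 of 10 samples had a maternal read, among them embryo 9 with 1 of 249 reads and embryo 10 with 2 of 136, which the 95% Wilson intervals of single wild-type libraries, reaching up to 9.41%, do not separate from the wild type. The allelic log2 change was 3.60 for Sgce (SE 0.72, adjusted p = 0.00348) and 2.34 for Mest (SE 0.65, adjusted p = 0.0478), the 2 calls among the 5 genes where 1.22% of all genes were called more maternal. The call of Mest did not hold with limma or with all groups in a single fit, where its adjusted p reached 0.103. Peg10, whose reads were 15.7% maternal over the 10 samples together, did not pass the ratio test (adjusted p = 0.226). Its maternal copy alone, at 14.2 ± 21.9 CPM (SD, n = 10) against 0 in every wild-type library, did pass (adjusted p = 0.00458), as did that of Sgce (log2 change 3.85, SE 0.82, adjusted p = 0.00142), where 15.4% of all genes were called higher on the maternal copy. The maternal copy of Mest did not pass (log2 change 1.22, SE 0.63, adjusted p = 0.154). It stood at 2.58 ± 2.53 CPM (SD, n = 10) against 1.03 ± 0.676 in the wild type (SD, n = 7).

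In total level the loss of Eed separated Peg10 from Mest. Peg10 ran from 38.7 over 98.6 to 212 CPM in Eed ExE, so all 10 samples lay above the wild-type maximum of 22.7 CPM (log2 change 2.22, SE 0.31, adjusted p = 1.02e-05). Most of this came from the copy that is active in the wild type: the paternal copy alone ran from 30.8 over 83.5 to 144 CPM, also above every wild-type value (log2 change 2.04, SE 0.28, adjusted p = 2.47e-05). Mest ran from 11.8 over 19.2 to 51.5 CPM, below the wild-type minimum of 33.7 CPM in 9 samples and above the maximum in embryo 9 (log2 change -1.0, SE 0.23, adjusted p = 0.00162). Its paternal copy fell by 1.09 on the log2 scale (SE 0.26, adjusted p = 0.00349). Of the 4 WT CASTxBDF1 ExE samples, 3 also had a Mest total below the WT BDF1xCAST minimum. Sgce, next to Peg10, had a total of 42.1 ± 10.7 CPM (SD, n = 10) and did not pass (log2 change 0.23, SE 0.20, adjusted p = 0.371). The background was 22.7% called higher and 18.1% called lower for total reads, and 16.2% and 11.7% for the paternal copy. Cell type markers also differed between the groups, and no relation of them to these levels was computed. In Eed ExE the ectoplacental cone marker Plac1 had a median of 2918 CPM (292.1 to 5394), Tpbpa held 4 reads over the 10 samples, and Prl3d1 and Ctsq were at 0, while the 7 ExE markers summed to 404.8 CPM (307.2 to 622.3) against 690.5 (567.9 to 1049) in the wild type. The 8 visceral endoderm markers summed to 47.9 CPM (38.02 to 75.11) against 20.08 (12.84 to 27.51), so the groups did not overlap, and the 7 epiblast markers to 662.9 CPM (482.9 to 960.8) against 962.6 (730.7 to 1216). Their part in the changes of Peg10 and Mest was not tested.

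Loss of G9a and Glp moved the same pair of totals in ExE with few maternal reads. Peg10 ran from 21.2 over 38.8 to 47.0 CPM, above the wild-type maximum in 7 of 8 samples (log2 change 1.01, SE 0.19, adjusted p = 0.00095), and Mest from 8.79 over 14.9 to 40.8 CPM, below the wild-type minimum in 7 of 8 (log2 change -1.11, SE 0.27, adjusted p = 0.00801). These were 1 of 5 genes higher and 1 lower, where 8.73% and 6.42% of all genes were. The minimum used here is that of WT BDF1xCAST, and 3 of the 4 WT CASTxBDF1 ExE samples also lay below it for Mest. The paternal copies behaved alike, with log2 changes of 0.92 for Peg10 (SE 0.17, adjusted p = 0.00181) and -1.10 for Mest (SE 0.26, adjusted p = 0.0120), where 4.95% of genes were called higher and 3.44% lower. The levels of Sgce, Casd1 and Ppp1r9a did not pass. The maternal copy of Peg10 was called higher (adjusted p = 0.0423), where 5.1% of genes were. In the ratio test edgeR called none of the 5 genes, where 1.1% of all genes were called. Unadjusted p under 0.05 was found for 2 of them, Sgce (log2 change 2.41, SE 0.74, p = 0.00331, adjusted p = 0.164) and Peg10 (p = 0.00776, adjusted p = 0.247). In G9a-Glp ExE Plac1 had a median of 529.2 CPM (5.97 to 2178), Tpbpa held 9 reads over the 8 samples, and Prl3d1 and Ctsq were at 0. The 8 visceral endoderm markers summed to a median of 54.3 CPM (20.3 to 138) against 20.1 (12.8 to 27.5) in the wild type. The part of such cells was not tested.

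In G9a-Glp epiblast the shares of Sgce lay within the wild-type range and those of Mest in 5 of 6 samples, with edgeR calling 0 of 4 genes, 0 of them at an unadjusted p under 0.05, where 1.79% of all genes were called. Sgce ran from 0.816 over 7.82 to 13.4 CPM in total against 7.62 to 19.8 in the wild type (log2 change -1.11, SE 0.39, adjusted p = 0.0342), and 2 of 6 samples lay below the wild-type range. Casd1 ran from 10.2 over 15.4 to 18.8 CPM against 17.8 to 29.0 (log2 change -0.57, SE 0.19, adjusted p = 0.0253). These were 2 of 4 genes, where 15% of all genes were called lower. Without the 2 libraries labelled G9a-Glp whose targeted genes were not low, the log2 changes were -1.19 and -0.56 and the adjusted p was 0.0752 and 0.0751, so neither was called.

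In Rnf2 ExE maternal reads of Peg10 and Sgce appeared in 3 of 5 embryos. The maternal share of Peg10 was 19.2%, 22.0% and 25.2% in embryos 2, 4 and 6 and 0% in embryos 5 and 7, and that of Sgce was 15.1%, 16.3% and 20.8% in the former and 0% in the latter. Mest followed another order, at 0.940%, 21.0%, 17.7%, 10.4% and 2.69% in embryos 2, 4, 5, 6 and 7. The Rnf2 level in the same embryos was 29.6, 22.4, 39.5, 62.7 and 21.9 CPM, so embryo 6, with the highest level, had the highest Peg10 and Sgce shares, and embryo 7, with the lowest, had 0% for both. The allelic log2 change was 3.56 for Sgce (SE 0.81, adjusted p = 0.0375), the 1 call among 5 genes where 0.455% of all genes were called more maternal, and Peg10 and Mest did not pass (adjusted p = 0.136 and 0.431). Without the 3 libraries labelled Rnf2 whose Rnf2 level was not low, no gene was called and the adjusted p of Sgce was 0.344. It was not called without embryo 2, 4 or 6 either. The maternal copies of Peg10 and Sgce were called higher (adjusted p = 0.0135 and 0.0364), where 8.55% of genes were, and not without the 3 doubted libraries (0.101 and 0.218).

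The total of Peg10 was 46.1, 57.7, 17.9, 63.3 and 33.2 CPM in Rnf2 ExE embryos 2, 4, 5, 6 and 7, above the wild-type maximum in 4 of 5 (log2 change 1.29, SE 0.25, adjusted p = 0.00176). It was the 1 gene called higher where 12.2% of all genes were, and without the 3 doubted libraries the log2 change was 1.33 (adjusted p = 0.0107). Its paternal copy rose by a log2 change of 1.06 (SE 0.21, adjusted p = 0.00342, or 0.0220 without the 3 doubted libraries), where 8.37% of genes were called higher. The paternal copy of Ppp1r9a, at 0.989 ± 0.280 CPM (SD, n = 5) against 2.68 ± 1.53 (SD, n = 7), fell by 1.45 on the log2 scale (SE 0.45, adjusted p = 0.0391, where 5.67% of genes were called lower), a call lost when any single one of the 5 embryos or all 3 doubted libraries were left out, with an adjusted p of up to 0.159. Mest and Sgce did not pass in total (adjusted p = 0.249 and 0.160). Plac1 had a median of 941.3 CPM (111.2 to 1808) in Rnf2 ExE, Tpbpa held 3 reads over the 5 samples, and Prl3d1 and Ctsq were at 0. The 8 visceral endoderm markers summed to a median of 40.0 CPM (22.0 to 49.3) against 20.1 (12.8 to 27.5) in the wild type. The part of such cells was not tested.

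In epiblast, Rnf2 and Eed knockouts had more Mest, still read from the paternal copy. Mest ran from 53.1 over 59.3 to 86.9 CPM in Rnf2 epiblast, above the wild-type maximum of 41.0 CPM in all 6 samples (log2 change 0.95, SE 0.16, adjusted p = 3.73e-04), where 18.3% of all genes were called higher. In Eed epiblast it ran from 35.6 over 53.5 to 77.1 CPM, above that maximum in 7 of 9 samples (log2 change 0.51, SE 0.16, adjusted p = 0.0159), where 18% of genes were. The reads stayed paternal, with a maternal share of 2.08% ± 3.11 in Rnf2 (SD, n = 6), 1.55% ± 1.55 in Eed (SD, n = 9) and 3.12% ± 3.05 in the wild type (SD, n = 7). The allelic test called 0 of 4 genes by edgeR in each knockout, 0 of them at an unadjusted p under 0.05, at backgrounds of 0.696% and 1.06%. The paternal copy of Mest rose by a log2 change of 1.01 in Rnf2 (SE 0.15, adjusted p = 4.54e-04) and 0.58 in Eed (SE 0.16, adjusted p = 0.0121), where 12.3% and 12.1% of genes were called higher. Sgce lay above the wild-type range in 4 of 6 Rnf2 epiblasts and did not pass (log2 change 0.58, SE 0.25, adjusted p = 0.0884). Peg10 had 12 to 90 reads in the deeper Rnf2 epiblast libraries, from 1.51 over 4.31 to 15.1 CPM, with 4.05% of 321 reads maternal. It entered the test without a filter on low counts, where its log2 change was 3.29 (SE 0.68, adjusted p = 5.97e-04), or with all BDF1xCAST groups in 1 fit, where it was 3.15 (SE 0.80, adjusted p = 0.00263). Markers of other cells differed in these groups as well. The 5 mesoderm and primitive streak markers in the table summed to a median of 31.99 CPM (15.2 to 162.5) in Rnf2 and 28.15 CPM (9.25 to 323.1) in Eed epiblast against 353.9 CPM (13.5 to 898) in the wild type. The 7 epiblast markers summed to a median of 2795 CPM (1881 to 4164) in Rnf2 and 4081 CPM (3389 to 5280) in Eed against 3616 CPM (3153 to 5613). Plac1 had a median of 24.7 CPM (14.8 to 33.5) in Rnf2 and 9.97 CPM (4.86 to 43.9) in Eed epiblast against 3.56 CPM (1.65 to 15.3) in the wild type. The part of these cells in the level of Mest was not tested.

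**Figure D4:**
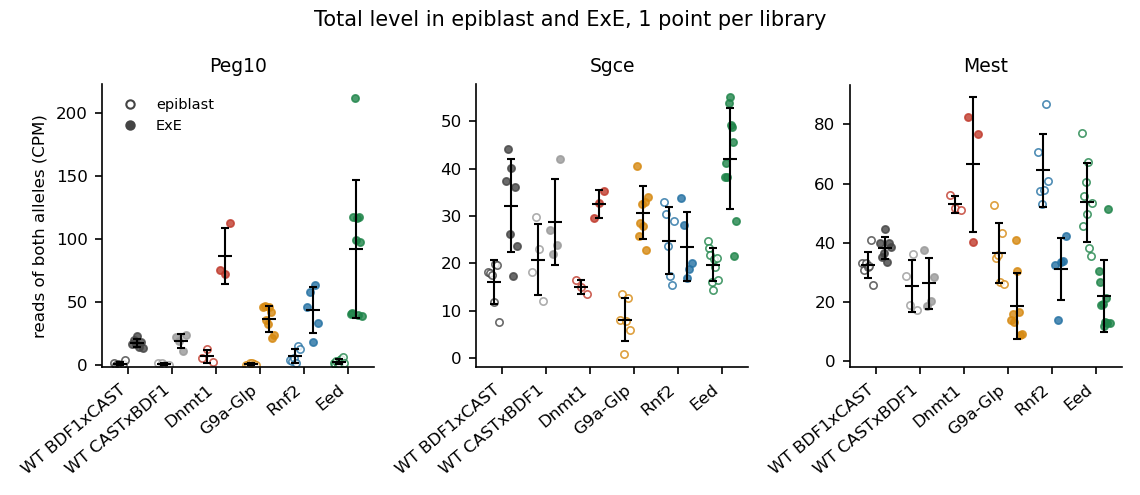
Total reads (CPM, y axis) of Peg10, Sgce and Mest in each library by group (x axis), with open points for epiblast, filled points for ExE and bars for the mean ± SD. Peg10 is higher than the wild type in ExE of each knockout, and Mest is higher in Rnf2 and Eed epiblast but lower in G9a-Glp and Eed ExE.

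The change of Mest differed between epiblast and ExE in 3 of the 4 knockouts by a test of the difference itself. The log2 change in ExE minus that in epiblast was -1.50 for Eed (SE 0.29, adjusted p = 4.06e-04), -1.30 for Rnf2 (SE 0.27, adjusted p = 0.00273) and -1.17 for G9a-Glp (SE 0.35, adjusted p = 0.0377), and 0.07 for Dnmt1 (SE 0.30, adjusted p = 0.975). Epiblast and ExE of an embryo are paired, and with the embryo as a replicate block the G9a-Glp value was -0.89 with an adjusted p of 0.20. Without the libraries whose targeted gene was not low, a setting chosen after seeing the data, the values were -1.29 for G9a-Glp (adjusted p = 0.0453) and -1.40 for Rnf2 (adjusted p = 0.0412). Mest was the 1 gene of 5 called for Eed, Rnf2 and G9a-Glp, where 15.9%, 6.82% and 6.83% of all genes were. For Peg10 the same differences did not pass (adjusted p = 0.764, 0.160 and 0.329), at an SE of 0.98, 0.81 and 0.86. Peg10 held 11 reads over the 7 WT BDF1xCAST epiblasts, so these tests could hardly detect a difference and show no likeness of the tissues. The differences of the allelic change did not pass for Sgce or Mest in any knockout.

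In order of mean level in ExE, Peg10 stood at 17.3 ± 3.19 CPM in WT BDF1xCAST, 18.8 ± 5.78 in WT CASTxBDF1, 36.6 ± 10.3 in G9a-Glp, 43.6 ± 18.5 in Rnf2, 86.5 ± 22.4 in Dnmt1 and 92.0 ± 55.0 in Eed. The wild-type crosses, G9a-Glp and Rnf2, and Dnmt1 and Eed are neighbours that differ by less than 1 SD. Mest in ExE stood at 18.7 ± 11.2 CPM in G9a-Glp, 22.0 ± 12.1 in Eed, 26.3 ± 8.61 in WT CASTxBDF1, 31.3 ± 10.5 in Rnf2, 38.3 ± 3.67 in WT BDF1xCAST and 66.5 ± 22.8 in Dnmt1. From G9a-Glp to WT BDF1xCAST each neighbour in that order was within 1 SD of the next. In epiblast Mest stood at 25.4 ± 8.78 CPM in WT CASTxBDF1, 32.6 ± 4.48 in WT BDF1xCAST, 36.6 ± 10.2 in G9a-Glp, 53.0 ± 2.86 in Dnmt1, 53.7 ± 13.3 in Eed and 64.4 ± 12.4 in Rnf2. Sgce spanned a narrower range in ExE, from 23.5 ± 7.21 CPM in Rnf2 to 42.1 ± 10.7 in Eed, and in epiblast from 8.08 ± 4.61 in G9a-Glp to 24.8 ± 7.16 in Rnf2. Group means of Casd1 lay between 13.1 and 22.8 CPM in all 12 groups, and those of Ppp1r9a between 3.95 and 23.5 CPM.

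The maternal reads of Peg10 and Sgce appeared in the same embryos. In Eed ExE both were above 20% in embryos 4, 6 and 7, where Peg10 held 31.9%, 31.2% and 22.7% and Sgce 22.2%, 27.8% and 22.9%. Both were under 3% in embryos 1 and 9. Embryo 3 was the exception, with 0 of 319 Peg10 reads (a 95% Wilson interval of 0% to 1.19%) and 12.5% of 104 Sgce reads (7.45% to 20.2%). These intervals cover counting error only. Over the 10 embryos Pearson's r between the Peg10 and Sgce shares was 0.894 (permutation p = 6.3e-04, adjusted over 6 relations 0.00378), Spearman's rho was 0.760 (permutation p = 0.0141, adjusted 0.0348), and r was 0.824 without embryos 4 and 6. In the 8 G9a-Glp ExE samples, shares were highest in embryos 1, 7 and 8 for both genes (16.1%, 16.3% and 7.78% for Peg10, and 18.2%, 13.3% and 7.04% for Sgce). There r was 0.969 (exact permutation p = 0.00238, adjusted 0.00586), rho was 0.850 (exact permutation p = 0.0143, adjusted 0.0348), and r was 0.923 without embryos 1 and 7. Both shares of an embryo come from the same library, and the annotations of the genes do not overlap.

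Mest, on the same chromosome but 26 Mb away, followed the pair in Eed ExE. Its share was 21.7%, 32.4% and 39.1% in embryos 4, 6 and 7, and r was 0.815 with Peg10 (permutation p = 0.00566, adjusted 0.00849, rho 0.736, permutation p = 0.0191, adjusted 0.0348) and 0.829 with Sgce (permutation p = 0.00293, adjusted 0.00586, rho 0.721, permutation p = 0.0232, adjusted 0.0348). Without the 2 embryos farthest from the median, r was 0.832 and 0.691. In G9a-Glp ExE the corresponding r was 0.673 with Peg10 (exact permutation p = 0.0530, adjusted 0.0530, rho 0.628, exact permutation p = 0.110, adjusted 0.110) and 0.805 with Sgce (exact permutation p = 0.0220, adjusted 0.0264, rho 0.685, exact permutation p = 0.0714, adjusted 0.0857). Without embryos 1 and 7 these were 0.01 and -0.04, so the relation rests on those embryos. In Rnf2 ExE, with 5 samples, no correlation was computed.

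The share and the level of Peg10 were not always high in the same embryos. In Eed ExE, embryo 3 had 117 CPM and no maternal read, whereas embryo 7 had 39.8 CPM with 22.7% maternal reads. Other imprinted genes were not always affected with these: over the other listed paternally expressed genes, such as Peg3, Impact and Kcnq1ot1, the median maternal share of embryo 7 was 0.535%, while Mest held 39.1% (95% Wilson interval 28.5% to 50.9%) and Sgce 22.9% (17.1% to 30.1%). In embryo 5 that median was 23.5%, above the 12.5%, 9.52% and 5.56% of Peg10, Sgce and Mest. In G9a-Glp ExE it was 27.4% in embryo 7, where Mest held 2.44%. The median rests on the listed genes with enough reads, 7 in Eed embryos 5 and 7 and 6 in this G9a-Glp embryo. Peg3, a zinc finger gene, and Impact, a regulator of translation, were the 2 of 6 genes of that list called more maternal in Eed ExE, and 5 of 6 were in Dnmt1 ExE.

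**Figure D5:**
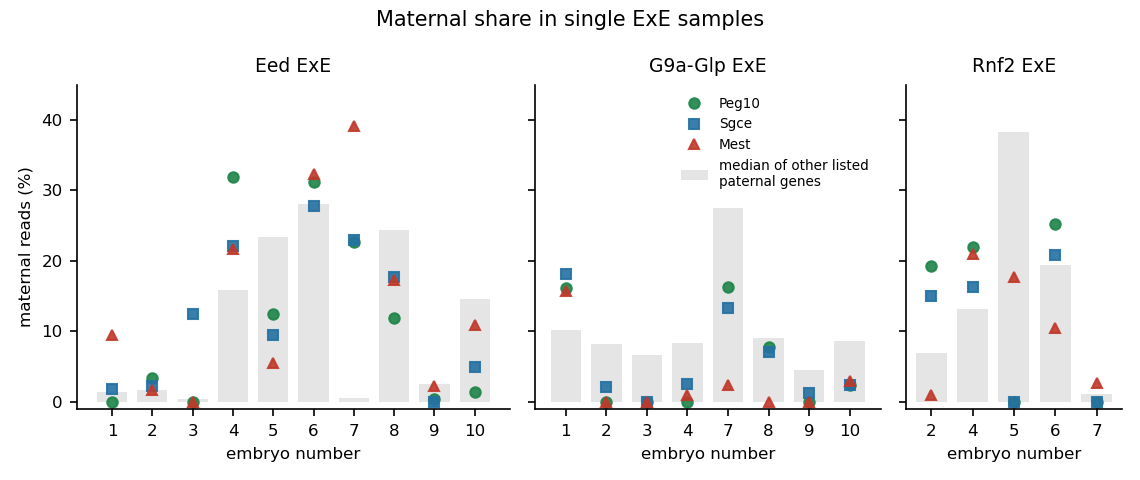
Maternal share of reads (%, y axis) of Peg10, Sgce and Mest in each Eed, G9a-Glp and Rnf2 ExE sample, ordered by embryo number (x axis), with grey bars for the median share of the other listed paternally expressed genes in that sample. The genes with enough reads differ by sample: a bar rests on 3 genes in Rnf2 embryo 5, where it is 38.3%, and on 5 to 9 elsewhere. Peg10 and Sgce lie close together in most embryos, and in Eed embryo 7 all 3 genes lie above 20% while the grey bar is near 0%.

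Casd1 and Ppp1r9a kept reads of both copies in every group. The mean maternal share of Casd1 ranged from 42.3% ± 11.3 in G9a-Glp ExE (SD, n = 8) to 54.5% ± 9.07 in Eed epiblast (SD, n = 9) among the knockouts, and neither gene was called in the ratio test of any knockout in either tissue. Ppp1r9a was highest in Rnf2 ExE, at 74.5% ± 6.02 (SD, n = 4), against 62.5% ± 11.9 in the wild type (log2 change 0.80, SE 0.48, adjusted p = 0.634). Of the further genes of both regions, 1 was called in a knockout ratio test: Slc25a13, a mitochondrial carrier gene 1294 kb from the Peg10 start, went from 42.2% ± 3.53 maternal reads in WT BDF1xCAST ExE (SD, n = 7) to 51.2% ± 3.04 in Eed ExE (SD, n = 10; log2 change 0.51, SE 0.11, adjusted p = 0.00857). It was not parentally biased in the wild type, with 55.1% ± 3.65 maternal reads in WT CASTxBDF1 ExE (SD, n = 4).

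By the root mean square difference of group mean maternal shares, the genes most like Sgce over the groups were Mest (3.93 percentage points over 12 groups), Kcnq1ot1 (5.14, 12 groups) and Snhg14 (5.69, 11 groups) of 7772 genes compared, and those most like Mest were Sgce (3.93), Snhg14 (4.45, 11 groups) and Cdh15 (6.01, 10 groups). Casd1 was most like Trrap, Mum1 and Hip1 (3.07 to 3.39 points), and Ppp1r9a most like Crot, Ddx19b and Map7d1 (3.14 to 4.03 points), while Peg10 had shares in too few groups to be compared. By level over the 72 libraries, Pearson's r of log2 CPM was highest for Peg10 with Ostf1 (0.926) and Cd82 (0.925), and for Sgce with Ethe1, Slc35d2 and Nmrk1 (0.760 to 0.797). For Ppp1r9a it was highest with Dst, Bptf and Diaph1 (0.774 to 0.812), for Mest with Spin2c, Ggct and Orc2 (0.674 to 0.676) and for Casd1 with Vps54, Ankrd26 and Hk2 (0.561 to 0.573). These libraries include both tissues, so such values describe the tissue difference as well, and no test was made of them.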

How the data were processed

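RNA was measured by SMART-Seq v4 and Nextera XT libraries from single bisected embryos, so replicates are separate embryos. Per the submitters' processing notes, reads were aligned to mm10 with STAR 2.5.0 and HTSeq was among the tools. For each gene and library the authors deposited a count of reads over polymorphisms and 2 scores: a rounded allelic ratio, and the signed -log10 of a binomial p. From the ratio and score, whole allele counts were recovered (712263 of 715156 values below the score limit matched within 0.001, or 99.6%). A further 3386 values were set by the rounded ratio, among them Mest in Rnf2 epiblast replicate 1.

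Tests used edgeR 4.0.16 in R 4.3.3 (quasi-likelihood test, Benjamini-Hochberg threshold 0.05) on total reads, each copy, and the maternal against the paternal copy within libraries. For each copy and for the ratio, a gene was tested where 3 or more libraries per group held 10 or more of its reads. For total reads, a gene was tested where it passed edgeR's own filter on low counts (filterByExpr). TMM scaling was applied to total reads and to each copy, and not to the ratio within libraries. limma 3.58.1 and DESeq2 1.42.0 served as alternatives, with other scalings, filters and samples left out. The fits were tested on simulated data. Permutation tests used scipy 1.17.1 under python 3.11.15, and figures matplotlib 3.10.9. Sequences are from RefSeq, GRCm38.p6. A gene was called imprinted when its parental term passed and its mean maternal share was at least 70% or at most 30% in both crosses.

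The 5 genes are named in every comparison, with the targeted genes, neighbours that passed an allelic test, and the 3 genes most like each in share and level, of which 1 is not reported here. Copg2, as the nearest neighbour of Mest, and Pon2 were named besides. The genes and lists were chosen with earlier results of these data known. Knockout and wild-type embryos of the same number were not paired, since the labels link them by nothing but the number. The correlation of their deviations ran from -0.443 to 0.424. Epiblast and ExE of the same number come from the same embryo per the embryo labels. Between these the correlation ran from -0.546 to 0.483, so it cannot tell paired from unpaired embryos. For Eed the numbers in the sample titles pair some embryos otherwise. Both tissues had, or both lacked, reads of a paternal X chromosome (over 10% of X reads) in 9 of 9 pairs by embryo label and in 7 of 9 by title, so the embryo label was used. An interval or a floor (3 reads of the total) covers counting error only.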

Additional observations from a re-analysis of the deposited data

Results flagged for a closer look

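Dixon's test for a single value that stands apart marked 8 of 92 sets of values, where chance marks about 5%. Mest stood at 51.5 CPM in Eed ExE replicate 9, and its maternal share was 15.8% in G9a-Glp ExE replicate 1 and 8.39% in Rnf2 epiblast replicate 8. Peg10 stood at 212 CPM in Eed ExE replicate 4, and its maternal share was 1.16% (1 read of 86) in WT CASTxBDF1 ExE replicate 4. The other libraries of that cross and tissue held 0%, so any single maternal read would have been marked there. Ppp1r9a stood at 28.97 CPM in WT BDF1xCAST epiblast replicate 8 and at 17.2 CPM in WT CASTxBDF1 epiblast replicate 2, and these 2 libraries also held the highest visceral endoderm sums of their groups, 452.8 and 2466 CPM. In the latter library the maternal share of Sgce was 26.9%.

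The change in the total level of Mest differed between the tissues by the interaction test, with a log2 change in ExE minus that in epiblast of -1.17 for G9a-Glp, -1.30 for Rnf2 and -1.50 for Eed. With the embryo as a replicate block the G9a-Glp difference was not called (adjusted p = 0.20), and those of Rnf2 and Eed were.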

How the results depend on the processing

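No value of the 5 genes that was called in the main fit or in an alternative reversed its direction. Where neither was called, the direction was not compared. Of their values under the alternatives, 969 kept their side of the threshold, 32 lost and 14 gained a call. How many of the 5 genes were called moved as follows, and the cause was not tested. With library totals in place of TMM factors, total calls went from 0 to 1 in Dnmt1 epiblast, from 2 to 0 in G9a-Glp epiblast and from 1 to 2 in Dnmt1 ExE. With all BDF1xCAST groups in 1 fit, total calls were 1 in Dnmt1 epiblast, 2 in Rnf2 epiblast (from 1) and 3 in Rnf2 ExE (from 1), and allelic calls were 0 in Rnf2 ExE (from 1) and 1 in Eed ExE (from 2). limma gave the same allelic counts of 0 and 1, the DESeq2 test 3 total calls in Rnf2 ExE, no filter on low counts 1 total call in G9a-Glp epiblast and 2 in Rnf2 epiblast, and a minimum of 20 reads 1 allelic call in Dnmt1 epiblast (from 2). Without the libraries whose targeted gene was not low, G9a-Glp epiblast had 0 total calls and Rnf2 ExE 0 allelic, 0 maternal and 1 paternal calls (from 1, 2 and 2).

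Leaving out 1 embryo at a time gave 1 to 2 allelic and 1 to 2 maternal calls in Dnmt1 epiblast, 1 to 2 total and 1 to 2 paternal calls in Dnmt1 ExE, and 0 to 2 allelic, 1 to 2 total, 1 to 2 maternal and 1 paternal call in Rnf2 ExE. Knockout and wild-type embryos share only a number. With that number as a replicate block, there was 1 total call in G9a-Glp epiblast (from 2) and 1 allelic call appeared in G9a-Glp ExE (Peg10, adjusted p = 0.0120), Peg10 passed the ratio test in Eed ExE (adjusted p = 2.5e-04), and in Rnf2 ExE Peg10 passed (adjusted p = 0.0164) where Sgce did not (0.116). With the embryo as a replicate block for the pairing of the tissues, the Mest difference between tissues was not called for G9a-Glp (0 calls) and was for Rnf2 and Eed. With the title number as the replicate block for Eed, chosen after seeing the data, the total difference of Mest was -1.55 (adjusted p = 3.93e-04) and 1 allelic difference was called (from 0), that of Mest (3.72, adjusted p = 0.0205). Counts over all genes moved by more than 1.5 times in 66 of 224 fits: in total reads of Rnf2 ExE from 2113 to 495, of Rnf2 epiblast from 3150 to 1150 and of Eed epiblast from 3623 to 1917 with the replicate block, of Dnmt1 ExE from 1804 to 609 and of Dnmt1 epiblast from 1428 to 669 without replicate 3, and of G9a-Glp ExE from 1398 to 2237 in 1 fit. Depth limits Peg10 in epiblast and Ppp1r9a in ExE, where a library often holds under 40 reads.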
